A study of Mus musculus with 24 samples.

Results

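The Egr and Nr4a immediate early genes are 2 small families of transcription factor genes that are switched on within minutes of strong neuronal activity. All 7 of them (Egr1, Egr2, Egr3 and Egr4, and Nr4a1, Nr4a2 and Nr4a3) were selected by symbol from the 18647 genes of the count table, and all 7 passed the filter on low counts that left 18153 genes for testing. RNA was sequenced from the hippocampal CA1 region of mice after pilocarpine-induced status epilepticus (SE), a prolonged seizure that in rodents is followed by chronic epilepsy. The data comprised 24 libraries, 15 from SE animals and 9 from controls, with 3 libraries in each of 8 groups. The SE groups were taken 6, 12, 24, 36 or 72 h after the seizure and the control groups (Ctr) at 12, 36 and 72 h. All animals were C57Bl/6N mice (Charles River) of at least 60 days. Both arms received scopolamine methyl nitrate (1 mg/kg) beforehand and diazepam (4 mg/kg) afterwards. The SE animals were injected with 335 mg/kg pilocarpine hydrochloride in between and were kept only if they developed SE, whereas the controls were given saline. Whole CA1 was dissected from slices, so the RNA came from all cells of the region. The labels do not say that each library came from its own animal, and the p-values below therefore measure only the spread between these libraries.

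The 4 Egr proteins are zinc finger transcription factors that bind GC-rich sites, and the corepressors Nab1 and Nab2 hold the activity of Egr1, Egr2 and Egr3 in check. The 3 Nr4a proteins are orphan nuclear receptors that act as single molecules or as pairs, in part together with retinoid X receptors. In neurons, calcium entry and growth factor signalling reach the promoters of these genes through kinases that activate CREB at cyclic AMP response elements (CRE) and SRF with its Elk partners at serum response elements. In the hippocampus Egr1 and Arc are widely used as markers of recently active neurons, and Nr4a1 and Nr4a2 have been tied to memory formation.

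After SE the members were not all called at the same hours. No test compared the courses between genes, and a call at only 1 of 2 hours is not a called difference between them. From 12 to 24 h after SE, edgeR called 0 members. The reference also differed, as 6 and 24 h were set against all 3 control groups and the other hours against the control group of the same hour. Egr1, Egr2, Egr3 and Egr4 were called higher at 6 h, and Egr1 and Egr2 were still called higher at 12 and 24 h. Egr4 was called higher at 12 h but not at 24 h, and Egr3 at 24 h but not at 12 h. Nr4a2 and Nr4a3 were also called higher at 6 h, by 3.55-fold and 4.28-fold, but were not called at 12 or 24 h and were called lower at 36 h, by 3.85-fold and 3.32-fold. The 6 h calls of Egr1, Egr2, Egr4 and Nr4a3 were lost without SE 6 h replicate 3. The 36 h call of Nr4a3 was lost in each fit that left out 1 of the libraries compared. By Pearson correlation over the libraries Nr4a1 was nearer to the Egr genes (0.69 to 0.90) than to Nr4a2 (0.50) and Nr4a3 (0.52). It was called higher at 24 h (2.58-fold) and lower at 72 h (2.55-fold), and each of these calls was lost in at least 1 fit that left out a library. A gene was called when the adjusted p of edgeR's quasi-likelihood test was at most 0.05 and the log2 fold change was at least 0.66 in size against controls, or at least 1 between SE time points.

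In CA1 the defining markers of its pyramidal cells, Wfs1 and Fibcd1, were detected in all 24 libraries, at 67.8 to 537 and 36.7 to 545 CPM (reads of a gene per 1000000 reads of the library after scaling). At 36 h they went opposite ways. Fibcd1 had 462 to 545 CPM in Ctr 36 h and 36.7 to 75.4 CPM in SE 36 h, and Wfs1 had 162 to 172 and 246 to 447 CPM. The dentate granule cell marker Prox1 was also detected in all 24 libraries, at 2.05 to 134 CPM. A few libraries stood apart before any test. The summed level of 11 tested marker genes of sensory ganglion and Schwann cells was 394 to 2034 CPM in 6 libraries (SE 6 h replicate 3, SE 12 h replicate 1, SE 36 h replicate 3, Ctr 72 h replicate 2, and SE 72 h replicates 1 and 2), with none of the 11 genes at 0. In the other 18 libraries it was 13.7 to 84.7 CPM, and 11 of these had at least 1 of the genes at 0. The summed level of 6 dentate granule cell markers was 104 to 242 CPM in 6 libraries (Ctr 12 h replicate 3, SE 12 h replicates 1 and 3, SE 36 h replicates 1 and 2, and SE 72 h replicate 1) and 9.72 to 76.9 CPM in the others. Whether either tissue had a part in the results on the 7 genes was not tested, and the counts of calls without these libraries are given with the counts over the family and the comparisons between time points. Library totals ranged from 2663936 to 30133731 reads, and the lowest read number of a member was 15, for Egr2 in Ctr 72 h replicate 3.

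On the mouse genome build GRCm39 the genes lie on 7 different chromosomes. Egr1 is at chr18:34992876-34998049 on the forward strand, Egr2 at chr10:67371305-67378018 (forward), Egr3 at chr14:70314350-70320063 (forward) and Egr4 at chr6:85485678-85490675 (reverse). Nr4a1 is at chr15:101151980-101172681 (forward), Nr4a2 at chr2:56996842-57014331 (reverse) and Nr4a3 at chr4:48045153-48086447 (forward). The canonical transcripts of the Egr genes have 2 exons each, and those of Nr4a1, Nr4a2 and Nr4a3 have 7, 8 and 8. An exon of a long non-coding RNA on the opposite strand overlaps exons of Egr4 and of Nr4a1 in GENCODE M39. As reads were counted without strand, reads of such a pair cannot be told apart.

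Because several members rose together, the 250 bases upstream of each canonical start were searched on both strands for the elements named above. The CRE core TGACG was present in 6 of the 7 windows, all but that of Nr4a2, against 18% of 21770 windows of protein-coding genes. The CArG box, the core of the serum response element, was found in 2 of the 7 windows, that of Egr2 among them, and in 1.4% of all windows. The 4 stretches below are shown as examples with 2 or 3 core sites each. Capitals mark the core sites, read on either strand, and the CArG box.

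Egr2 (chr10:67373572-67373691, forward): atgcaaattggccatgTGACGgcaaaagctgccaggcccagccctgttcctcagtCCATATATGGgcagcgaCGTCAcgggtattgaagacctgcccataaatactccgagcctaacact

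Egr4 (chr6:85490676-85490795, reverse): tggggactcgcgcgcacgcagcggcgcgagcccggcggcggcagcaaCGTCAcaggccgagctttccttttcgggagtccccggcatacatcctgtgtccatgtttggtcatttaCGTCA

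Nr4a1 (chr15:101164460-101164539, forward): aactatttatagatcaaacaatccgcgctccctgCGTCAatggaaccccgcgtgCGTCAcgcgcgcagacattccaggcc

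Nr4a3 (chr4:48045033-48045152, forward): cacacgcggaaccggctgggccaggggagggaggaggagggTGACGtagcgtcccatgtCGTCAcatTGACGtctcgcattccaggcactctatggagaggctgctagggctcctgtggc

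Except for Nr4a1, which is shown from 200 to 121 bases before its start, each stretch ends at the base before the start. In Egr2 a core site follows the CArG box. The 3 core sites of Nr4a3 begin 79, 61 and 53 bases before its start. The full CRE TGACGTCA (1.69% of windows), the Egr site GCGNGGGCG (4.48%) and the Nr4a site AAAGGTCA (1.19%) were in no member's window, and TATAAA (11.9%) was found in that of Nr4a1 only. These matches describe the letters of the windows and say nothing of binding.

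In the 9 control libraries the genes differed widely in level. Per kilobase of the canonical transcript, Nr4a1 had 44.1 ± 13.3 CPM per kb (SD, n = 9), Egr1 37.4 ± 16.1, Nr4a2 29.3 ± 10.4, Egr3 26.6 ± 5.72, Nr4a3 19.2 ± 5.15, Egr4 7.28 ± 2.80 and Egr2 2.50 ± 1.51. Egr2 was thus the lowest of the 7 on this scale. The 3 control groups were not level with each other. For Egr1, the controls had 102, 109 and 68.1 CPM at 12 h, 185, 204 and 170 CPM at 36 h, and 275, 135 and 267 CPM at 72 h, so that every 12 h library was below every later one. The same held for Egr2, Egr3, Egr4 and Nr4a1, and 5 of 7 members were thus higher without overlap in Ctr 36 h and in Ctr 72 h than in Ctr 12 h, as were 8.08% and 6.01% of all genes tested. In edgeR none of the 7 was called in these control comparisons, where 0% (36 h against 12 h), 0.931% (72 h against 12 h) and 1.97% (72 h against 36 h) of the genes tested were called. At an unadjusted p under 0.05 there were 0, 1 and 0 members, beside 648, 3500 and 3879 of the 18153 genes tested. DESeq2 and limma-voom called 0 members in each, and a fit of the compared groups alone called 3 members higher in Ctr 36 h than in Ctr 12 h. The SE 12 h comparison was therefore made against the lowest of the control groups for those 5 genes.

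**Figure D1:**
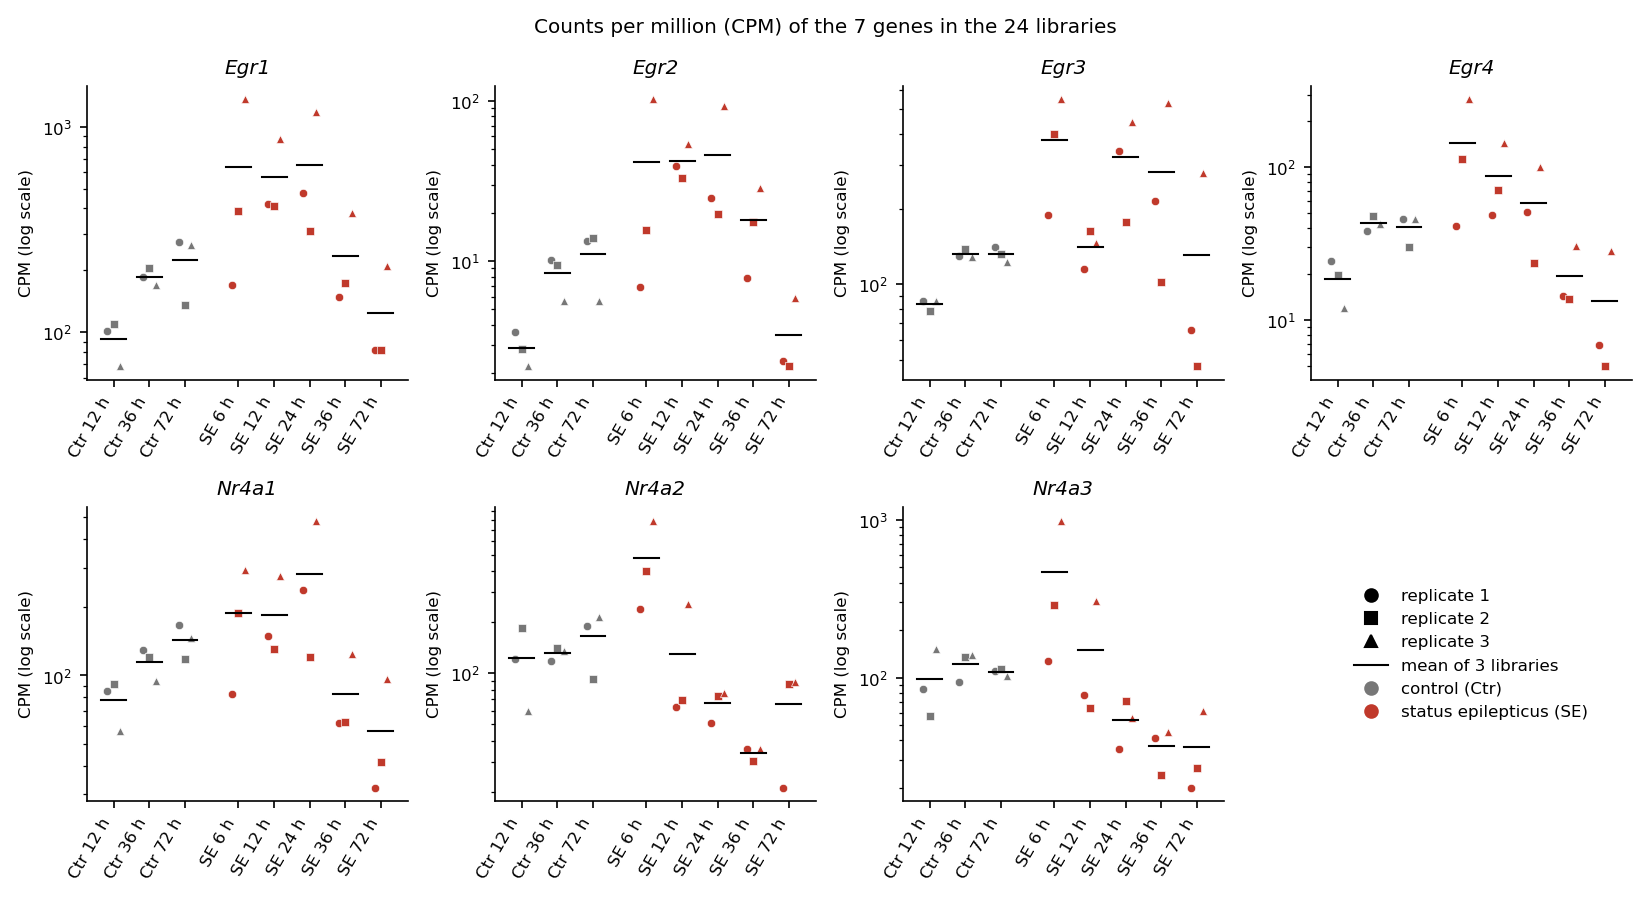
Each panel shows 1 gene in the 24 libraries, in CPM on a log axis, with the 3 control groups in grey, the 5 SE groups in red, a marker shape for each replicate number and a line at the mean of 3 libraries. Egr1, Egr2 and Egr4 are highest at 6 to 24 h, Nr4a2 and Nr4a3 only at 6 h, and replicate 3 is the highest library in most SE groups.

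Egr1, whose protein is among the best studied regulators of synaptic plasticity, had 170, 389 and 1359 CPM at 6 h after SE, 421, 413 and 867 CPM at 12 h and 476, 311 and 1173 CPM at 24 h. At 12 and 24 h every SE library was above every control library, whereas at 6 h replicate 1 lay within the control range. The log2 fold change was 2.06 ± 0.44 at 6 h against all controls (standard error of the fit, adjusted p = 0.000991, 4.17-fold), 2.60 ± 0.62 at 12 h against Ctr 12 h (adjusted p = 0.00262, 6.06-fold) and 2.08 ± 0.44 at 24 h against all controls (adjusted p = 0.000805, 4.23-fold). At 36 h the libraries had 148, 174 and 380 CPM and at 72 h 81.8, 82.0 and 210 CPM. Both groups overlapped their controls, and the log2 fold changes of 0.36 (adjusted p = 0.684) and -0.82 (adjusted p = 0.325) were not called. The 6 h call was lost without SE 6 h replicate 3, which left a log2 fold change of 0.84.

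Egr2, which in other tissues directs peripheral myelination and hindbrain patterning, was the member with the largest fold change at 12 h. It had 39.4, 32.9 and 53.9 CPM there against 3.60, 2.83 and 2.20 CPM in Ctr 12 h, a log2 fold change of 3.90 ± 0.83 (adjusted p = 0.00105, 15-fold) with no overlap. At 6 h the SE libraries had 6.87, 15.6 and 102 CPM, so that a single library carried most of the group mean. The log2 fold change of 2.69 ± 0.55 (adjusted p = 0.000649) dropped to 0.78 and was no longer called without that library, replicate 3. At 24 h the values of 24.8, 19.6 and 92.8 CPM were all above the highest control (14 CPM), with a log2 fold change of 2.81 ± 0.55 (adjusted p = 0.00037), or 1.77 without SE 24 h replicate 3, which was also called. At 36 h Egr2 had 7.85, 17.5 and 28.4 CPM (log2 fold change 1.07, adjusted p = 0.293) and at 72 h 2.37, 2.19 and 5.85 CPM (-1.66, adjusted p = 0.14). Neither was called.

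Egr3, a relative that neurons induce along with Egr1, had lower values at 12 h than at 6 and 24 h. They were 190, 398 and 548 CPM at 6 h and 341, 178 and 445 CPM at 24 h, all above the control maximum of 141 CPM, but only 115, 164 and 146 CPM at 12 h. The log2 fold change was 1.74 ± 0.42 at 6 h (adjusted p = 0.00246, 3.34-fold) and 1.5 ± 0.42 at 24 h (adjusted p = 0.00708, 2.83-fold). At 12 h the libraries were still all above Ctr 12 h (85.8, 78.6 and 85.9 CPM), yet the log2 fold change of 0.76 ± 0.55 was not called (adjusted p = 0.293). The 24 h call was lost without SE 24 h replicate 3 (1.19). At 36 and 72 h the groups spread from 102 to 528 CPM and from 47.0 to 279 CPM around their controls, and the log2 fold changes of 1.1 (adjusted p = 0.143) and -0.01 (adjusted p = 0.989) were not called.

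Egr4, the remaining gene of the family, had its highest group mean at 6 h. It had 41.1, 113 and 279 CPM at 6 h, 48.8, 71.2 and 144 CPM at 12 h, 50.7, 23.7 and 99.9 CPM at 24 h, 14.3, 13.7 and 30.4 CPM at 36 h and 6.80, 4.96 and 28.4 CPM at 72 h. Its controls had 24.4, 19.6 and 11.9 CPM at 12 h, 38.3, 48.2 and 42.3 CPM at 36 h and 46.0, 29.8 and 45.7 CPM at 72 h. The SE libraries were thus all above their controls at 12 h and all below them at 36 and 72 h. The log2 fold changes of 2.20 ± 0.47 at 6 h (adjusted p = 0.000954) and 2.23 ± 0.66 at 12 h (adjusted p = 0.0112) were called. Those of 0.88 at 24 h (adjusted p = 0.165), -1.11 at 36 h (adjusted p = 0.203) and -1.58 at 72 h (adjusted p = 0.0865) were not. The 6 h call was lost without SE 6 h replicate 3 (1.27), and the 12 h call without Ctr 12 h replicate 3 (1.98) or SE 12 h replicate 3 (1.70).

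Nr4a1, also known as Nur77, had 82.5, 189 and 294 CPM at 6 h, 149, 131 and 275 CPM at 12 h and 238, 120 and 482 CPM at 24 h. At 12 h these lay above all 3 Ctr 12 h libraries (85.6, 91.8 and 57.1 CPM), and the log2 fold change of 1.24 ± 0.49 had an adjusted p of 0.0501, just past the threshold. DESeq2 called it at 1.27, and it was also called without SE 12 h replicate 2 (1.43). At 6 h the log2 fold change of 0.80 was not called (adjusted p = 0.098), although it was without SE 6 h replicate 1 (1.15). At 24 h it was 1.37 ± 0.37 (adjusted p = 0.00543), and that call was lost without SE 24 h replicate 3 (0.72). The values then went to 61.6, 62.3 and 124 CPM at 36 h and 31.8, 41.4 and 96.7 CPM at 72 h. The 72 h libraries were all below Ctr 72 h (168, 118 and 146 CPM), with a log2 fold change of -1.35 ± 0.50 (adjusted p = 0.0472). This call was lost without Ctr 72 h replicate 1 (-1.23) or 3 (-1.34), or SE 72 h replicate 1 (-1.05) or 2 (-1.17).

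Nr4a2, known from its part in the development of dopaminergic neurons, had 239, 401 and 791 CPM at 6 h, above all 9 controls (59.8 to 216 CPM). Its log2 fold change of 1.83 ± 0.38 (adjusted p = 0.00081) was still called without SE 6 h replicate 3 (1.23). At 12 h the libraries had 62.9, 69.0 and 255 CPM and straddled Ctr 12 h (121, 186 and 59.8 CPM), with a log2 fold change of 0.05 (adjusted p = 0.95). At 24 h they had 50.4, 72.8 and 76.6 CPM (-1.02, adjusted p = 0.073). This value was called without Ctr 12 h replicate 3 (-1.13) or Ctr 72 h replicate 2 (-1.05). At 36 h Nr4a2 was at 35.8, 30.3 and 35.8 CPM against 118, 141 and 135 CPM in Ctr 36 h. The lowest control was thus 3.29 times the highest SE library, with a log2 fold change of -1.94 ± 0.53 (adjusted p = 0.008) that stayed called in all 6 fits that left out 1 of these libraries. At 72 h the 21, 86.1 and 89.1 CPM were again below all Ctr 72 h libraries (189, 92.3 and 216 CPM), but -1.31 ± 0.52 was not called (adjusted p = 0.0679). In such bulk samples, fewer cells of a type and less RNA per cell cannot be told apart, and 3 of 8 neuronal markers were called lower at 36 h as well.

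Nr4a3, the third receptor of the family, had 127, 289 and 985 CPM at 6 h, and its log2 fold change of 2.10 ± 0.46 (adjusted p = 0.00128) was no longer called without SE 6 h replicate 3 (0.92). At 12 h the libraries split into 77.1, 64.5 and 307 CPM, with a log2 fold change of 0.61 (adjusted p = 0.468). The values were 35.1, 71.4 and 55.4 CPM at 24 h (-1.01, adjusted p = 0.144), 41.5, 24.1 and 45 CPM at 36 h and 19.9, 26.7 and 61.7 CPM at 72 h. At 36 and 72 h all of them were below the matched controls, which had 93.4, 136 and 138 CPM and 111, 114 and 102 CPM. The 36 h difference of -1.73 ± 0.64 was called (adjusted p = 0.0453), but in none of the 6 fits that left out 1 of the libraries compared (-1.5 to -1.9). The 72 h difference of -1.59 ± 0.65 was not called (adjusted p = 0.0735).

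**Figure D2:**
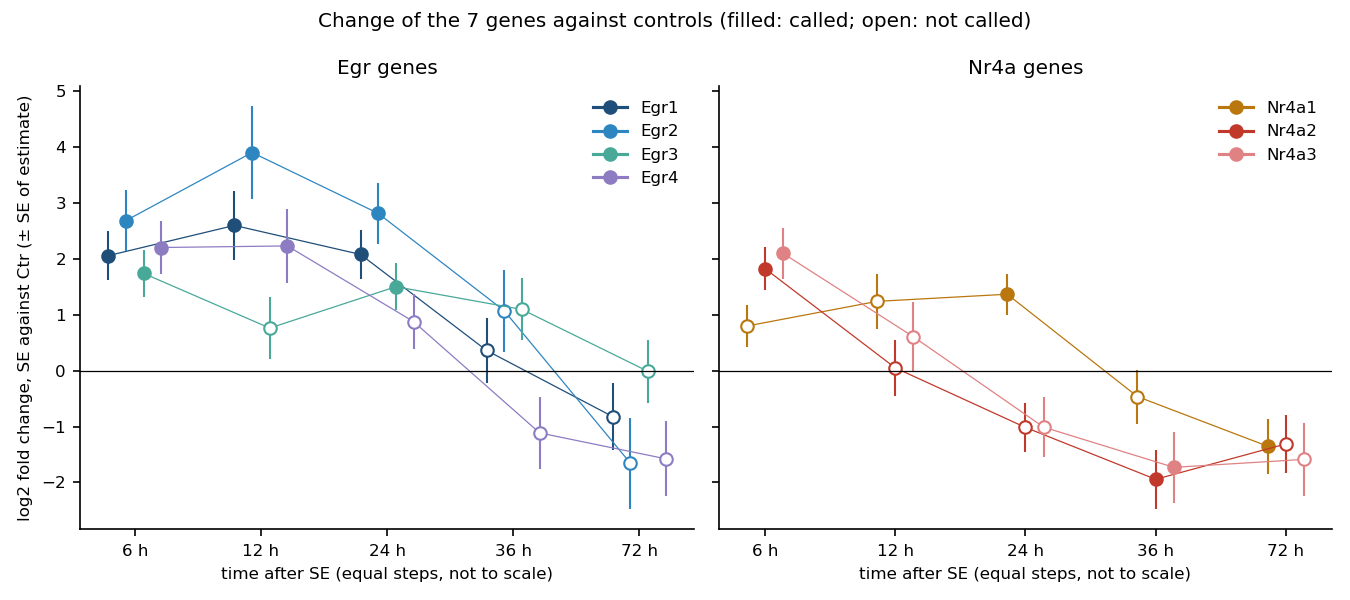
Log2 fold change of each gene in SE against control libraries, with the standard error of the fit, for the 4 Egr genes (left) and the 3 Nr4a genes (right); 6 and 24 h were set against all 3 control groups and 12, 36 and 72 h against the control group of the same hour, and filled points were called. At 12 h Nr4a2 (0.05), Nr4a3 (0.61), Egr3 (0.76) and Nr4a1 (1.24) were not called, while Egr1, Egr2 and Egr4 stand at 2.23 to 3.90.

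Counted over the family, 6 of 7 members were called at 6 h, all higher, where 22% of all genes tested were called. At 12 h it was 3 of 7, all higher (25.2% of all genes), and at 24 h 4 of 7, all higher (24.1%). At 36 h 2 of 7 were called, both lower (21.6%), and at 72 h 1 of 7, lower (19.4%). The 6 and 24 h counts were made against all 3 control groups, and the others against the control group of the same hour. These counts therefore differ in reference and in number of control libraries, and their order over the hours cannot be read as a course alone. The 36 h count against the mean of the 3 control groups is given with the other settings below. Without SE 6 h replicate 3 the 6 h count was 2 (Egr3 and Nr4a2), without SE 24 h replicate 3 the 24 h count was 2 (Egr1 and Egr2), and with any single one of the 6 compared libraries left out the 36 h count was 1 (Nr4a2). At 72 h, 5 members were called lower without Ctr 72 h replicate 2 (Egr1 -1.22, Egr4 -1.94, Nr4a1 -1.59, Nr4a2 -1.72 and Nr4a3 -1.66) and 3 without SE 72 h replicate 3 (Egr4 -2.74, Nr4a1 -1.97 and Nr4a3 -2.23). Without the 6 libraries with ganglion and Schwann cell markers, which left 1 library in SE 72 h that was assumed to vary like the other groups, the counts were 3, 5, 5, 4 and 0 in the order of the hours, the 24 h count then holding 4 higher and 1 lower and the 36 h count 4 lower. Without the 6 libraries with dentate markers, which left 1 library each in SE 12 h and SE 36 h that was assumed to vary like the other groups, they were 6, 0, 5 (4 higher, 1 lower), 2 (1 higher, 1 lower) and 0.

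The SE effect itself was compared between time points in 1 model. From 12 to 72 h it fell for 4 of 7 members, with log2 differences of -3.42 ± 0.85 for Egr1 (adjusted p = 0.00789), -5.56 ± 1.16 for Egr2 (0.00237), -3.81 ± 0.94 for Egr4 (0.00727) and -2.59 ± 0.69 for Nr4a1 (0.0122). Over all genes 22.2% were called in this edgeR test, and all 4 calls held in every fit that left out 1 of the 12 libraries. With a factor for the ranges of label numbers described below, Egr2 (-4.50) and Egr4 (-3.79) were called, and Egr1 (-2.98) and Nr4a1 (-2.42) were not. Without the dentate libraries, with 1 library left in SE 12 h, none of the 4 was called (Egr1 -2.55, Egr2 -4.80, Egr4 -2.92 and Nr4a1 -1.62). Without the ganglion libraries, with 1 library left in SE 72 h, all 4 were (Egr1 -3.03, Egr2 -4.80, Egr4 -3.15 and Nr4a1 -1.96). Without SE 72 h replicate 3, Egr3 (-1.99) and Nr4a3 (-2.84) were called too. Part of each difference lies in the controls, where these 4 genes were lower in Ctr 12 h than in Ctr 72 h in every library. Between 12 and 36 h only Egr4 was called, with a difference of -3.35 ± 0.92 (adjusted p = 0.0457), among 3.83% of all genes. That call was kept without SE 12 h replicate 1 (-3.66) but not in the other 11 fits (-2.82 to -3.84). It was also lost without the dentate libraries (-2.20) and without the RUVr factor (-3.38), whereas without the ganglion libraries 6 members were called, all but Egr3. Between 36 and 72 h the effect differed for 0 members in edgeR, against 5.35% of all genes. There 1 member had an unadjusted p under 0.05, as did 4042 of the 18153 genes tested, and DESeq2 and limma-voom called no member.

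From one SE time point to the next, only Nr4a2 was called. It fell from 6 to 12 h by 1.95 ± 0.52 on the log2 scale (adjusted p = 0.0385, 3.86-fold), among 1.34% of all genes called. The call was lost without SE 6 h replicate 2 (-2.06) or 3 (-1.36), or SE 12 h replicate 1 (-1.57) or 2 (-1.68). It was also lost without the RUVr factor (-1.89), with the factor for label ranges (-1.78), where Egr3 (-2.08) and Nr4a3 (-2.13) were called lower instead, and without the ganglion libraries (-1.09), where Egr1 (1.22) and Egr2 (2.06) were called higher at 12 than at 6 h. Without the dentate libraries, with 1 library left in SE 12 h, it was called (-2.80). Its groups overlapped through SE 12 h replicate 3 (255 CPM), whereas those of Egr3 did not, at a log2 fold change of -1.42 that was not called (adjusted p = 0.152). Without SE 12 h replicate 3 both Nr4a2 (-2.87) and Nr4a3 (-2.72) were called lower at 12 than at 6 h. From 12 to 24 h (3.18% of all genes), 24 to 36 h (0.529%) and 36 to 72 h (4.13%) edgeR called 0 members. At an unadjusted p under 0.05 there were 2, 3 and 1, beside 4474, 3015 and 4545 of the 18153 genes tested. DESeq2 called 0, 1 and 1 members while limma-voom called none. Nr4a1 was called lower at 36 than at 24 h without SE 24 h replicate 2 (-2.11), and Egr3 lower at 72 than at 36 h without SE 72 h replicate 3 (-2.30). Without the ganglion libraries Egr4 was called lower at 24 than at 12 h (-1.06), and Egr1 (-1.77), Egr2 (-1.54), Egr4 (-1.78) and Nr4a1 (-1.93) were called lower at 36 than at 24 h. All 7 had log2 fold changes below 0 from 24 to 36 h, with Nr4a1 at -1.75 (adjusted p = 0.0879) and Egr4 at -1.55 (0.243).

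Ordered by mean level over the 8 groups, most neighbouring groups overlapped. Of 49 neighbouring pairs over the 7 genes only 2 did not, SE 12 h above SE 36 h for Egr1 and SE 6 h above Ctr 72 h for Nr4a2. Over all genes tested 7.94% of such pairs did not overlap. The highest group was SE 24 h for Egr1 (654 ± 458 CPM, SD, n = 3), Egr2 (45.8 ± 40.9) and Nr4a1 (280 ± 185), and SE 6 h for Egr3 (379 ± 180), Egr4 (144 ± 122), Nr4a2 (477 ± 284) and Nr4a3 (467 ± 456). For Egr1 the means at 6, 12 and 24 h, at 639, 567 and 654 CPM, did not differ beyond their spread. The lowest group was Ctr 12 h for Egr1, Egr2 and Egr3, SE 72 h for Egr4, Nr4a1 and Nr4a3, and SE 36 h for Nr4a2.

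In 33 of 35 pairs of a gene and an SE group, the highest library was replicate 3, by margins that differed. Egr2, for example, had 6.87, 15.6 and 102 CPM at 6 h but 39.4, 32.9 and 53.9 CPM at 12 h. In the controls replicate 3 was highest for 2 (Ctr 12 h), 1 (Ctr 36 h) and 1 (Ctr 72 h) of the 7 genes. As the members correlate with each other, these pairs are not independent, and no share over all genes is given. The description field gives each library a number whose meaning the labels do not state, and these numbers fall into 3 ranges. Range 92 to 104 holds 8 SE libraries, replicate 3 of every SE group among them, and no control. Range 109 to 122 holds 6 SE and 5 control libraries and range 162 to 169 holds 1 and 4. Within range 109 to 122, 2 SE 6 h libraries were above 5 controls by 0.28 (Nr4a1) to 1.33 (Egr3) on the log2 scale, and only Egr3 and Nr4a2 did not overlap, beside 24.7% of all genes higher without overlap. The 5 controls of this range are 2 of Ctr 12 h and 3 of Ctr 36 h, with none of Ctr 72 h. In the same range, 2 SE 36 h libraries lay below the 5 controls without overlap for Nr4a2 (-2.07), Nr4a3 (-1.61), Egr4 (-1.22) and Nr4a1 (-0.73), beside 25.3% of all genes. The 2 SE 72 h libraries did so for all 7 genes, at -0.85 (Egr1) to -2.47 (Egr4), beside 23.5% of all genes, here against controls of earlier hours. Within range 162 to 169, the SE 12 h library was above 4 controls for Egr1 (1.39), Egr2 (2.47) and Egr4 (0.73) and below them for Nr4a3 (-0.61), beside 26.5% of all genes above and 21.7% below. These 4 controls are 1 of Ctr 12 h and 3 of Ctr 72 h, so most are of a later hour. The SE 24 h libraries all have numbers from 97 to 99, a range without controls. With the range as a factor in the fit, the 24 h log2 fold changes of Egr1 (0.70), Egr2 (1.45), Egr3 (0.26) and Nr4a1 (0.38) were not called, and Nr4a2 (-2.12) and Nr4a3 (-2.24) were called lower.

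Egr1 and Nr4a2 can be set against each other within single libraries, where scaling cancels. Per kilobase, the ratio of Egr1 to Nr4a2 was 0.625 to 1.66 in the 9 controls and 0.754 to 1.82 at 6 h, when both genes were high. At 12 h it was 7.10, 6.34 and 3.60, at 24 h 10.0, 4.53 and 16.2, and at 36 h 4.39, 6.10 and 11.2, so that all 9 of these libraries were above all controls. At 72 h it was 4.13, 1.01 and 2.49. The ratio was chosen after the values of both genes were seen, so its course follows from theirs. It is given as a description and covers no other member.

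**Figure D3:**
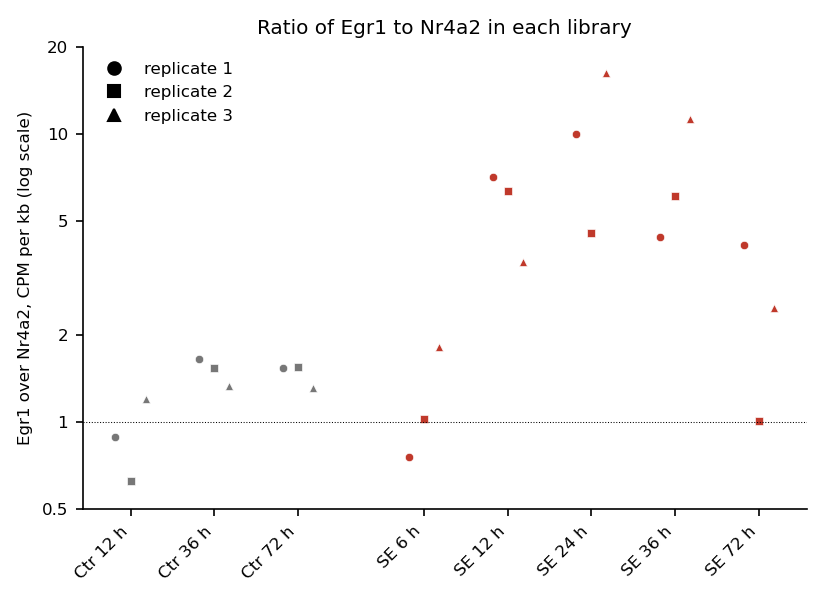
Ratio of Egr1 to Nr4a2 in each of the 24 libraries, both in CPM per kilobase of the canonical transcript, on a log axis, with controls in grey and SE libraries in red. Controls and SE 6 h lie at or below 1.82, whereas the SE libraries of 12 to 36 h lie between 3.60 and 16.2.

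Across the 24 libraries, which differ in treatment and depth and are not all independent conditions, the log2 CPM of Egr1 to Egr4 and Nr4a1 had pairwise Pearson correlations of 0.68 to 0.94. The highest was that of Egr1 with Egr2 (0.94), and Nr4a1 stood at 0.90 with both Egr1 and Egr4. Nr4a2 and Nr4a3 correlated at 0.85 with each other and at 0.20 to 0.75 with the other 5. After the group means were taken away, Egr1 correlated at 0.94 with Egr4 and with Nr4a1, and Nr4a2 with Nr4a3 at 0.59. With the other 5 members, Nr4a2 then stood at 0.30 (Egr3) to 0.66 (Egr1) and Nr4a3 at 0.51 (Egr3) to 0.64 (Egr1). Within groups, Nr4a2 and Nr4a3 were thus each nearer to Egr1 than to each other. Among 13740 other genes whose log2 CPM averaged 1 or more, the genes most like Egr1 were Junb (0.96), Fos (0.94) and Fosl2 (0.93), and those most like Egr2 included Arc (0.92) and Junb (0.91). Egr3 was most like Mir670hg (0.85), Homer1 (0.84) and Phf13 (0.83). Egr4 was most like 1700016P03Rik (0.92), Phf13 (0.89) and Fosb (0.89). Nr4a1 was most like Npas4 (0.93), Gpr176 (0.90) and Junb (0.87). Nr4a2 was most like Nap1l5 (0.93), Chrm4 (0.91) and Rims2 (0.90), and Nr4a3 was most like Pgap4 (0.91), Zbtb11 (0.90) and Tsc22d1 (0.89). None of the latter 6 was among the genes nearest to the other 5 members.

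Of 12 other rapidly induced transcription factor genes, 11 were called higher at 12 h, with a median log2 fold change of 2.82 over the list beside 0.01 over all genes. The largest were Atf3, a stress-induced factor (5.74 ± 0.81, 53.4-fold), the AP-1 genes Fosb (4.33 ± 0.80) and Fos (3.33 ± 0.64), and Maff, a small Maf factor (3.87 ± 0.40). At 36 h 5 were called higher, led by Maff (2.91), Atf3 (2.74), Csrnp1 (2.03) and Jun (1.41), and 1 was called lower, Klf4 (-1.12), which is named because it moved the other way. At 72 h only Maff was called (1.34). The list's median was 0.49 at 36 h and -0.18 at 72 h, beside 0.00 and 0.10 over all genes. Of all genes tested, 13.9%, 12.7% and 15.2% were called higher at 12, 36 and 72 h and 11.4%, 8.91% and 4.21% lower.

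Among 15 kinases and transcription factors upstream of the members, 3 were called higher and 3 lower at 12 h (median -0.14). Over all genes 13.9% were called higher and 11.4% lower there. Srf rose by 1.38 ± 0.29, the ERK-activated kinase gene Rps6ka3 by 1.36 ± 0.12 and the SRF partner gene Elk3 by 1.25 ± 0.16, while Camk4, a calcium-dependent kinase gene, fell by 0.92 ± 0.28. At 36 h 2 were higher, Elk3 (2.40) and Rps6ka3 (1.35), and 4 were lower, among them the CREB coactivator gene Crtc1 (-1.1) and Mef2a (-0.79) (median -0.37). The shares over all genes were 12.7% higher and 8.91% lower. At 72 h only Elk3 was called (2.00, median 0.01), beside 15.2% of all genes called higher and 4.21% lower. Srf was not called at 36 or 72 h.

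Of the 5 corepressor and partner genes (Nab1, Nab2, Rxra, Rxrb and Rxrg), edgeR called none at 12, 36 or 72 h, with medians of -0.05, -0.25 and 0.10. At an unadjusted p under 0.05 there were 1, 3 and 1 of them, beside 8534, 7477 and 7113 of the 18153 genes tested. DESeq2 and limma-voom each called 0, 1 and 0 of the list. Of 6 genes that have been described as Egr targets, 1 was called higher at 12 h, the synaptic gene Arc (3.24 ± 0.55, 9.45-fold), beside 13.9% of all genes. At 36 h 2 were lower, the GABA receptor subunit gene Gabra4 (-0.91 ± 0.19) and the Cdk5 activator gene Cdk5r1 (-0.81 ± 0.14), beside 8.91% of all genes. At 72 h Arc was lower (-1.54 ± 0.52), beside 4.21% of all genes. The medians of this list were -0.17, -0.25 and -0.36.

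**Figure D4:**
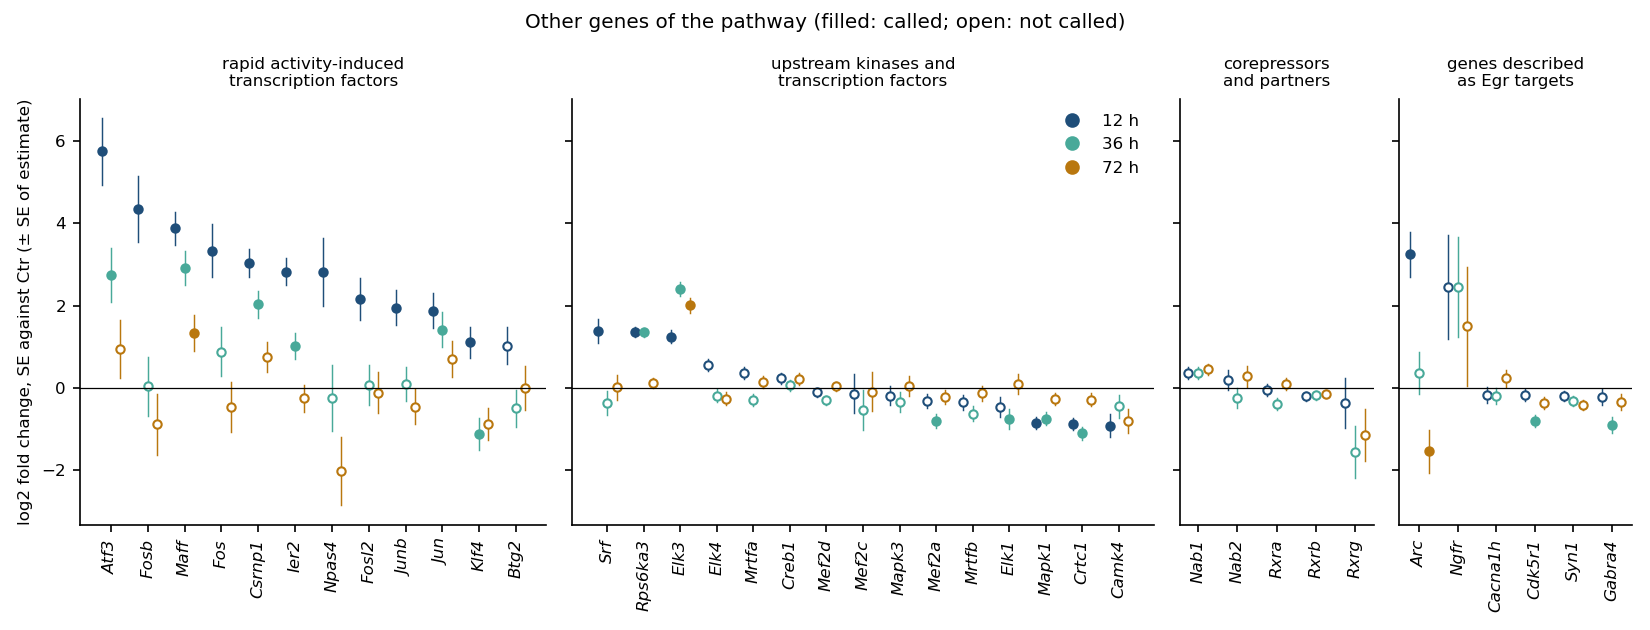
Log2 fold change with the standard error of the fit for 38 other genes of the pathway in 4 lists, at 12 h (blue), 36 h (green) and 72 h (orange) against the control group of the same hour; filled points were called. Most rapidly induced factors are high at 12 h and near 0 by 72 h, Elk3 is highest at 36 h (2.40), and Arc goes from 3.24 at 12 h to -1.54 at 72 h.

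The cell type markers give the setting of these values. Of all genes tested, 13.9%, 12.7% and 15.2% were called higher at 12, 36 and 72 h and 11.4%, 8.91% and 4.21% lower. Against all controls these shares were 15.8% and 6.21% at 6 h and 14.9% and 9.21% at 24 h. Of 8 neuronal markers, 2, 3 and 3 were called lower at 12, 36 and 72 h and none higher. Of 6 CA1 pyramidal cell markers, 0, 3 and 2 were called lower. Of 8 microglia and macrophage markers, 2, 6 and 8 were called higher, and their summed level was 1464 to 2104 CPM at 72 h after SE beside 324 to 362 CPM in Ctr 72 h. Of 8 vascular markers, 4, 4 and 3 were called higher and 1, 0 and 0 lower. Of the 4 blood leukocyte markers tested of 8, 1 was called higher at each time. Of 6 dentate granule cell markers, 0, 1 and 3 were called higher, and of the 11 ganglion and Schwann cell markers tested of 12, 3, 1 and 0. At 6 h, set against all controls, none of the neuronal, CA1 or dentate markers was called in edgeR. Of these, 2, 1 and 1 had an unadjusted p under 0.05, beside 8708 of the 18153 genes tested, DESeq2 called 1, 0 and 0 and limma-voom none. At the same hour 3 microglia and macrophage markers were lower, 4 vascular markers were higher and 2 lower, and 2 leukocyte markers and 1 ganglion marker were higher. At 24 h 2 neuronal, 1 CA1 and 1 dentate marker were lower, 4 microglia and macrophage and 6 vascular markers were higher, and edgeR, DESeq2 and limma-voom called no leukocyte or ganglion marker, none of which had an unadjusted p under 0.05. The part of these shifts in the levels of the 7 genes was not tested.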

How the data were processed

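Per the labels and the study's methods, the authors isolated total RNA from microdissected CA1, selected mRNA with poly-T beads, prepared libraries with the TruSeq RNA Library Prep Kit v2 and sequenced paired ends on a HiSeq1500. The submitters' processing notes name Trim Galore 0.6.6, STAR 2.7.8a, SAMtools 1.10 and HTSeq 0.13.5 on GRCm39. The deposited values are raw whole-number counts per gene, with lanes merged and without strand. All 24 columns were used, and no row named something other than a gene. The 7 genes were found by Ensembl ID without its version in GENCODE M39, in which 18552 of 18647 IDs had a symbol.

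Counts were tested with edgeR 4.0.16 in R 4.3.3 (quasi-likelihood test, TMM scaling, filterByExpr over the 8 groups, 1 term for each group and 1 RUVr factor estimated from the residuals, Benjamini-Hochberg adjustment over 18153 genes). CPM values were TMM scaled. DESeq2 1.42.0, limma-voom (limma 3.58.1) and other settings were alternatives. Named genes were the 7 members, for 4 pathway lists all genes called (lists of up to 6 genes) or the 4 largest called changes at 12, 36 and 72 h, and for each member the 3 genes with the highest correlation of log2 CPM (prior count 2), of which 1 is not reported here, nor is 1 promoter stretch. Markers of 7 cell types were counted. The members and lists were chosen with earlier results of these data known. On simulated counts for SE 12 h against Ctr 12 h, 127 of 188 genes changed by 1.5 on the log2 scale were recovered (67.6%) over 17177 genes, with 7 called in error. Total counts per library ranged from 2663936 to 30133731 (median 13521590), and counting error is largest for Egr2. Motif windows of 250 bases were read from GRCm39 with GENCODE M39 starts.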

Additional observations from a re-analysis of the deposited data

Results flagged for a closer look

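The 5 results below were marked because the SE effect differed between 2 time points by a test of the difference itself, an interaction term in edgeR's quasi-likelihood fit with Benjamini-Hochberg adjustment over 18153 genes. From 12 to 72 h the log2 effect changed by -3.42 for Egr1, -5.56 for Egr2, -3.81 for Egr4 and -2.59 for Nr4a1, and from 12 to 36 h by -3.35 for Egr4. The Egr4 call from 12 to 36 h was lost in 11 of 12 fits that left out 1 library, and without the RUVr factor. Limits of the calls from 12 to 72 h are given above. None of the 7 genes had a control library that stood apart from the other 8 by Dixon's criterion in 14 tests, of the lowest and of the highest library of each gene. The largest gap was 0.30 of the range, against a critical value of 0.493. As these tests pooled control groups that were not level with each other, they cannot show whether a library stood apart within its group. The SE libraries were not tested in this way.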

How the results depend on the processing

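Of 210 recounts of the members called (15 comparisons, alternatives on all libraries or without a group of libraries), 174 stayed within 1.5 times the reported count, and of 513 recomputed log2 fold changes of members 430 kept their direction and their side of the threshold. For the exceptions the cause was not tested. A fit of the compared groups alone called 5 members at 12 h, 7 (5 higher, 2 lower) at 24 h, 5 (2 higher, 3 lower) at 36 h and 3 at 72 h, as well as 1 from 36 to 72 h, 4 for the change of the SE effect from 12 to 36 h, 1 for that from 36 to 72 h and 3 for Ctr 36 h against Ctr 12 h. Without the RUVr factor 0 members were called at 72 h, from 6 to 12 h and for the change of the effect from 12 to 36 h. DESeq2 called 1 from 24 to 36 h and 1 from 36 to 72 h, scaling to the library total alone called 1 at 36 h, and the mean of the 3 control groups as the reference called 4 at 36 h. With a factor for the 3 ranges of label numbers the counts were 2 members at 72 h, 2 members (both lower) at 24 h, 2 from 6 to 12 h, 1 from 12 to 24 h, 2 from 36 to 72 h and 2 for the change from 12 to 72 h. The following were chosen after seeing the data. Without the 6 libraries with ganglion and Schwann cell markers the counts were 3 members at 6 h, 5 members at 12 h, 4 members at 36 h and 0 members at 72 h (where SE 72 h kept 1 library, its spread taken from the other groups), with 2 from 6 to 12 h (both higher), 1 from 12 to 24 h, 4 from 24 to 36 h, 6 for the change from 12 to 36 h and 1 for Ctr 72 h against Ctr 12 h. Without the 6 libraries with dentate markers, which left 1 each in SE 12 h and SE 36 h, there were 0 members at 12 h, 0 members at 72 h and 0 for the changes from 12 to 36 h and from 12 to 72 h.

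Some values changed sign, none of them called in the reported fit. Nr4a2 at 12 h was -0.10 in limma-voom, -0.36 with the range factor, -0.13 with the replicate block, -0.12 against the mean of the control groups, -1.15 without the dentate libraries and -0.011 in the compared groups only. With the range factor Egr3 (-0.26) and Nr4a3 (-0.45) at 12 h, Egr1 at 36 h (-0.27) and Egr4 at 24 h (-0.75) turned negative. Without the dentate libraries Nr4a3 at 12 h (-0.13) and Nr4a1 at 36 h (0.10) changed sign, and without the ganglion libraries Egr1 at 36 h (-0.21). Egr3 at 72 h was 0.018 with the library total, 0.21 against the mean of the control groups, 1.08 without the ganglion libraries (1 SE library left) and 0.31 without the dentate libraries. With 1 library left out, Nr4a2 at 12 h ranged from -0.88 to 0.52, Nr4a3 at 12 h from -0.46 to 1.07, Egr1 at 36 h from -0.21 to 0.60 and Egr3 at 72 h from -1.23 to 0.39. The counts then ranged from 2 to 7 members at 6 h, 2 to 5 members at 24 h, 1 to 1 member at 36 h, 0 to 5 members at 72 h, 0 to 2 from 6 to 12 h, 0 to 1 from 24 to 36 h, 0 to 1 from 36 to 72 h and 0 to 1 for the change from 12 to 36 h.

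The labels give the groups the same replicate numbers. Over 84 same-numbered pairs the correlation of deviations from the group means was -0.35 to 0.40, over 0.1 in 19. Its median was -0.0028, beside -1.7e-05 for other pairs, and 7 of 24 libraries correlated best with their own number. The check pooled SE and control libraries over all genes. It therefore cannot decide whether replicates of the SE groups share structure, such as the high values of the members in replicate 3. With the replicate block 5 members were called lower at 72 h (Egr2, Egr4, Nr4a1, Nr4a2 and Nr4a3), beside 1 in the reported fit, and 1 from 36 to 72 h. The number of all genes called against controls moved by over 1.5 times at 12 h, from 4580 to 2910 with a log2 threshold of 1 and 6986 with none. At 6 h it moved from 3994 to 2574 and 7243, and at 24 h from 4377 to 2911 and 7504. With the range factor it was 2477 for 6 h, 2627 for 24 h and 1595 for 72 h (3530 in the reported fit), and for 72 h it was 2269 without the ganglion libraries. Depth limits Egr2 most, with 15 to 182 reads in the controls.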
